A study of Mus musculus with 16 samples.

Results

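Cycling T cells are T cells in the course of dividing. Here they were chosen by 3 measured conditions on each cell barcode: at least 2 UMIs (unique molecular identifiers, each standing for 1 captured mRNA molecule) of Cd3d, Cd3e and Cd3g together, at least 2 UMIs of Mki67 and Top2a together, and at most 2 UMIs of Lyz2. Cd3d, Cd3e and Cd3g encode the CD3 chains of the T cell receptor complex, Mki67 (Ki-67) and Top2a (topoisomerase II alpha) are made by dividing cells, and Lyz2 is the lysozyme gene of macrophages, monocytes and neutrophils. The choice used barcodes with 500 or more genes and no more than 10% of UMIs from mitochondrial genes, 22305 of 28678, and a barcode string found in several libraries of a tumor line was kept only in the library where it had the most UMIs, which left 16350 cells. Of these, 7080 were T cells by the CD3 and Lyz2 conditions, and 1599 (22.6% of T cells) were cycling. They are compared below with the 4260 T cells that had no Mki67 or Top2a UMI, called non-cycling here, and the 1221 T cells with 1 such UMI were in neither population.

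The cells were live CD45+ cells sorted from subcutaneous tumors of C57BL/6J mice, 6 to 8 weeks old by the methods, and profiled with 10x Genomics 3' chemistry, which counts polyadenylated mRNA from its 3' end. The MC38 line derives from a mouse colorectal carcinoma, and the Panc02-SIY line from a mouse pancreatic adenocarcinoma with the model antigen SIY added. Each line was left untreated or was given a single 12 Gy dose of CT-guided radiation to the tumor, and the tumors were taken 24 h after the dose. Each of the 4 groups has 4 libraries, numbered as replicates, and the labels give 4 animals per group where the methods of the study give 3. The numbers of animals therefore differ between the sources, so the p-values below measure the spread between libraries. Nearly all cycling T cells, 1585 of 1599, came from Panc02-SIY (1091 from untreated and 494 from irradiated tumors), and 14 came from MC38 (6 and 8). Genes were therefore compared between irradiated and untreated tumors in Panc02-SIY only, and the MC38 cells are described at the end.

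A T cell that has met its antigen leaves rest by way of cyclins and their kinases, which release E2F transcription factors from the RB family. E2F factors turn on the enzymes of DNA replication, and the mitotic genes follow. Ionizing radiation breaks DNA, and the transcription factor p53 then turns on inhibitors of the cycle such as Cdkn1a (p21) together with genes of repair and of cell death. Dividing T cells in tumors are mostly recently activated or effector cells, and lymphocytes are among the most radiation-sensitive cells of the body.

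The libraries were not equal in depth, and in MC38 they were not independent in their barcodes. The deposited totals ran from 5327146 to 43776342 UMIs over the Panc02-SIY libraries and from 3240877 to 10121198 over the MC38 libraries. The 9843 barcodes of the 8 MC38 libraries were 2632 distinct strings, so that a string recurred across libraries, while Panc02-SIY had 18136 distinct strings among 18835. Keeping each string once left 1596 of 7360 MC38 cells and 14754 of 14945 Panc02-SIY cells. Of the members, 9 of 14 in MC38 and 49 of 1585 in Panc02-SIY had a string that other libraries of the line held too, and their kept copy had a median of 15.2 and 60.5 times the UMIs of the next copy. No Panc02-SIY member had the string of an MC38 barcode.

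The label was checked against genes that the choice did not use. Over all members the median was 37 CD3 UMIs, 5 Mki67 and Top2a UMIs together, 13364 UMIs in all, 3506 genes and 3.36% mitochondrial UMIs, with Top2a detected in 89.3% of members and Mki67 in 74.3%. Cd3e (ENSMUSG00000032093, chr9:44998740-45009627, minus strand), Mki67 (ENSMUSG00000031004, chr7:135689784-135716361, minus strand) and Top2a (ENSMUSG00000020914, chr11:98992943-99024189, minus strand; GRCm38/mm10) were the markers given for the cells, and their levels are therefore no result. A list of 70 genes of G2 and mitosis held 11358 CPM (UMIs scaled to a total of 1000000) in the 1142 members with 3 or more Mki67 and Top2a UMIs, but 2033 CPM in the 457 members with exactly 2, beside 1713 CPM in T cells with 1 UMI and 1518 CPM in those with none. A list of 60 S phase genes held 7076, 2322, 1860.0 and 1530.4 CPM in the same order. Members just inside the threshold thus had cell-cycle transcript levels nearer to those of T cells just outside it than to those of the other members. They made up 40.5%, 23.8%, 29.8% and 22.5% of members in the untreated and 19.0%, 38.5%, 39.0% and 33.1% in the irradiated libraries of Panc02-SIY, and the groups overlapped. On the CD3 side, 38 members had exactly 2 CD3 UMIs, and 169 cells that met every other condition had 1.

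In Panc02-SIY the cycling share of T cells was lower in irradiated than in untreated tumors by 11.2 percentage points on average, but the libraries overlapped and the difference did not pass the test. In the untreated libraries 84 of 433, 244 of 955, 168 of 768 and 595 of 1748 T cells met the cycling condition. These shares are 19.4%, 25.5%, 21.9% and 34.0%. In the irradiated libraries 21 of 262, 117 of 853, 105 of 817 and 251 of 1163 T cells met it. These are 8.02%, 13.7%, 12.9% and 21.6%. The share was 25.2% ± 6.40 (SD, n = 4) in untreated and 14.0% ± 5.62 (SD, n = 4) in irradiated tumors, and 1 irradiated library, at 21.6%, lay above the lowest untreated one. A two-sided exact permutation test over all 70 ways to assign the 8 libraries to the groups gave p = 0.0571, where 0.0286 was the smallest value possible, and 0.400 adjusted over the 7 shares tested. Depth moved with treatment as well: the median UMIs of a member were 11453.5, 14694, 14692 and 16086 in the untreated and 7912, 9047, 9472 and 11996 in the irradiated libraries, and those of a non-cycling T cell were 7057, 7069, 7149 and 7960.5 against 5995, 5854, 4793 and 6297.5. When each T cell was thinned to 2000 UMIs the shares were 8.56% in untreated and 5.85% in irradiated tumors (exact permutation p = 0.257), and at 3000 UMIs 12.5% and 7.70% (p = 0.171). The share was lower in irradiated tumors at both depths, and the part of depth in the difference was not tested.

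**Figure D1:**
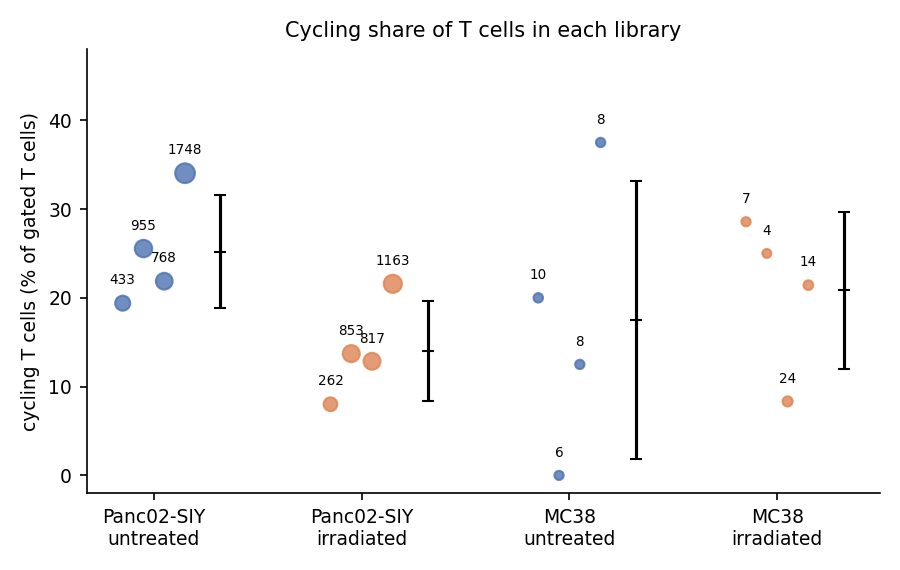
Cycling T cells as a percent of T cells (vertical axis) in each library of the 4 groups, with 1 point per library and the group mean with its SD as a bar. The printed number gives the T cells of each library, and points are larger for more T cells but not in proportion. In Panc02-SIY the irradiated libraries lie between 8.02% and 21.6% and the untreated ones between 19.4% and 34.0%, while the MC38 points rest on 4 to 24 T cells each.

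Most of the cycling T cells of Panc02-SIY were CD8 cells, defined as cells with a UMI of Cd8a or Cd8b1 and none of Cd4 or Foxp3. In untreated tumors 923 of 1091 members were CD8 cells, 46 were conventional CD4 cells (a Cd4 UMI, none of Cd8a, Cd8b1 or Foxp3) and 28 had a UMI of Foxp3, the factor that defines regulatory T cells. In irradiated tumors the counts were 408, 23 and 20 of 494. Cells with both CD4 and CD8 transcripts (23 and 11) or with neither (71 and 32) were few, and a UMI of Trdc, the constant part of the delta chain of the gamma delta T cell receptor, was present in 32 and 12 members. The CD8 share per library was 75%, 82.4%, 82.1% and 87.6% in untreated and 57.1%, 83.8%, 78.1% and 86.1% in irradiated tumors, with the lowest value in the irradiated library of 21 members. The means, 81.8% and 76.3%, differed by less than the spread (exact permutation p = 0.600), as did the conventional CD4 share (4.59% and 9.91%, p = 0.771) and the Foxp3 share (4.26% and 4.09%, p = 0.971; adjusted values over the 7 shares of 0.900, 0.900 and 0.971). For the background of free RNA, 11.2% of 812 cells with at least 10 Lyz2 UMIs and no CD3 UMI had a CD8 UMI, 2.83% a Cd4 UMI, 0.739% a Foxp3 UMI and 0.123% a Trdc UMI, at a median of 10979 UMIs. The shares among members, 86.9%, 8.39%, 3.03% and 2.78%, were all above it.

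Against non-cycling T cells of the same library, cycling T cells carried more transcripts of replication and mitosis and fewer of resting and memory cells. These levels are given with no test, because both populations were selected on Mki67 and Top2a, with which the other cell-cycle genes move. Differences are the median over the 8 Panc02-SIY libraries of log2(CPM + 10), for genes above 20 CPM in either population, and their median over all 6296 such genes was -0.02, with 15.6% higher and 14.6% lower in all 8 libraries. Of 57 S phase genes, 56 were higher in all 8 libraries, with a median difference of 1.66. Pclaf, a partner of the replication clamp PCNA, had 528 against 12.2 CPM, and Rrm2, a subunit of the reductase that makes deoxynucleotides, had 151 against 5.91 CPM. Of 66 genes of G2 and mitosis, 63 were higher in all 8 libraries, with a median difference of 2.27. Birc5 (survivin) had 203 against 4.84 CPM, Cenpf, a centromere protein, had 169 against 3.26 CPM, and Ccna2 (cyclin A2) had 107 against 1.65 CPM. Of 15 histone genes, 11 were higher in all 8 libraries, among them Hist1h2ap at 393 against 8 CPM. Of 23 DNA repair genes, 15 were.

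Genes that mark naive and memory T cells were lower, with a median difference of -0.63 over 18 genes, of which 13 were lower in all 8 libraries. Tcf7, a transcription factor of naive and stem-like T cells, had 44.5 against 100.3 CPM, and S1pr1, the receptor by which they leave tissue, had 41.2 against 109 CPM. Of 55 interferon-stimulated genes, 32 were lower in all 8 libraries (median -0.41), among them Slfn5 at 10.9 against 53.2 CPM and Samhd1, which breaks down deoxynucleotides, at 209 against 404 CPM. Cytotoxic effector genes did not move together: their median difference was 0.10 over 26 genes, the granzyme gene Gzmc had 108 against 18.5 CPM and was higher in 7 of 8 libraries, and the chemokine gene Ccl5 had 2396 against 5009 CPM and was lower in all 8. A list of macrophage and monocyte genes differed little, with a median difference of 0.20 over 19 genes. Of these, 0 were higher and 1 was lower in all 8 libraries, and the list summed to 4205 against 3782 CPM. The complement genes C1qa (237 against 111 CPM) and C1qb (228 against 100.0 CPM) of macrophages were higher in the cycling cells in 7 of 8 libraries. At least 100 UMIs of the list were held by 10.2% of members and 2.76% of non-cycling T cells (macrophage-rich cells below). That cut was not scaled to depth, and the median totals were 13428 and 6504 UMIs. The part of macrophage RNA in the other differences was not tested.

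**Figure D2:**
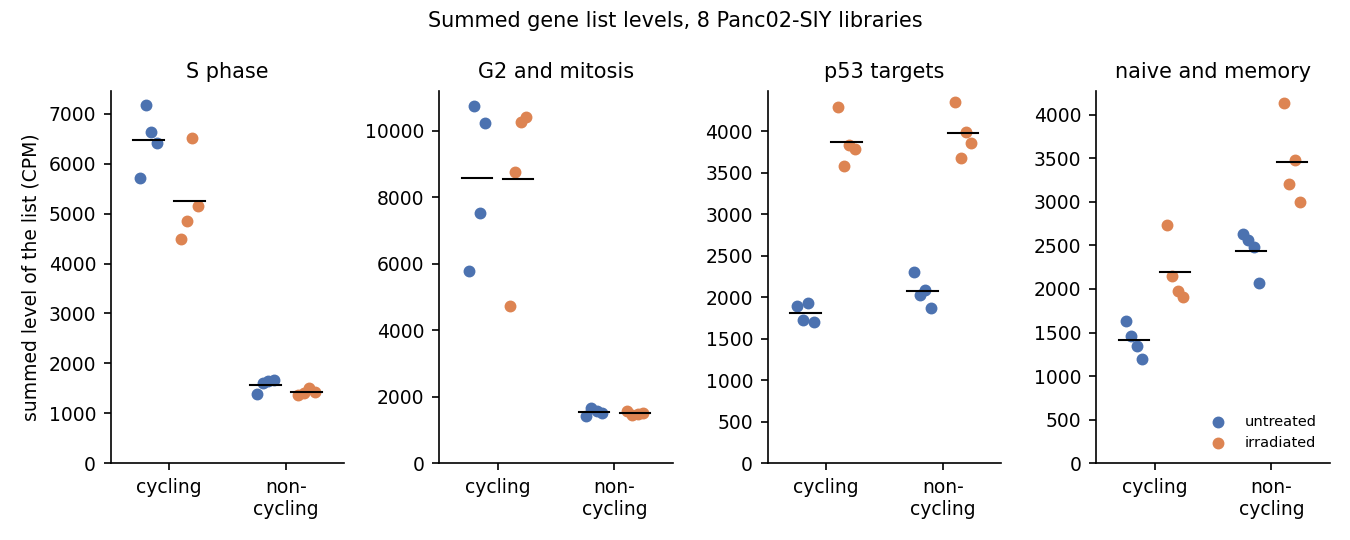
Summed level of 4 gene lists (vertical axis, CPM from 0) in cycling and non-cycling T cells of the 8 Panc02-SIY libraries, with 1 point per library and a line at each group mean. The S phase and G2 and mitosis lists lie several-fold higher in cycling cells, and the p53 targets lie higher in every irradiated library of both populations, with means of 1813 and 3872 CPM in cycling cells.

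The S phase genes include targets of E2F factors, so their promoters were searched for E2F-type octamers. The 250 bases before the RefSeq start of each gene were searched on both strands for the 4 motifs TTTGGCGC, TTTCCCGC, TTTCGCGC and TTTGCCGC, for the 9039 of 11768 genes tested whose promoter sequence was used here. A motif was present in 361 of these promoters (3.99%), in 11 of 44 S phase promoters (25%), in 4 of 60 promoters of G2 and mitosis genes (6.67%) and in 1 of 38 promoters of p53 targets (2.63%). Windows of 100 bases are shown for the 3 genes with a match among the 15 S phase promoters, of 17 genes, that were called lower after radiation, to let the matched letters be seen in context. They are given 5′ to 3′ on the plus strand of GRCm38.p6 from RefSeq, with the motif or its reverse complement in capitals. The motif begins 71 bases before the start of Cdca7 (chr2:72476102-72476201), a chromatin gene of dividing cells, 138 bases before that of Cdc6 (chr11:98907967-98908066), which loads the replicative helicase, and 185 bases before that of Uhrf1 (chr17:56304082-56304181), which passes DNA methylation to new strands.
Cdca7: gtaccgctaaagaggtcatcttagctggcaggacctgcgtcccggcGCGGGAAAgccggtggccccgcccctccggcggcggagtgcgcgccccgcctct
Cdc6: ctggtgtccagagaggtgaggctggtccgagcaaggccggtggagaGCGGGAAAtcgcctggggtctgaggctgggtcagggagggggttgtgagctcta
Uhrf1: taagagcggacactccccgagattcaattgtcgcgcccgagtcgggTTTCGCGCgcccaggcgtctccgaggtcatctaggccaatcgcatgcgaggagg

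Irradiated Panc02-SIY tumors held cycling T cells with more p53 target transcripts and fewer of S phase, and little difference in the genes of mitosis. Members of both groups were chosen for at least 2 Mki67 and Top2a UMIs, with which other cell-cycle genes move. A similar level of mitosis genes can therefore come in part from that choice. Of 11768 genes tested in counts summed per library, 371 were higher (3.15% of genes tested) and 601 lower (5.11%) with an adjusted p under 0.1 and a change of more than 1.3-fold (edgeR quasi-likelihood test with Benjamini-Hochberg adjustment), and 2292 had an unadjusted p below 0.05. The libraries of the 2 groups did not overlap for 1322 genes (11.2%), among them 244 of the rises and 424 of the falls called. The median log2 fold change over all genes tested was 0.02. The number of calls moved with single libraries: it was 972 with all of them, 351 without irradiated replicate 2, 454 without irradiated replicate 4, 605 without irradiated replicate 3, 1520 without untreated replicate 1, and 451, 611 and 448 without untreated replicates 2, 3 and 4. It was 157 when each library's counts were thinned to the smallest total, that of the 21 members of irradiated replicate 1.

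The p53 targets rose together. Of 48 tested, 30 rose and 1 fell (Apex1, an endonuclease of base excision repair), with a median log2 fold change of 0.88, beside 3.15% of all genes that rose. Cdkn1a (ENSMUSG00000023067, chr17:29090976-29100727, plus strand), the p21 inhibitor of cyclin-dependent kinases, had 29.7, 20.2, 19.8 and 29.1 CPM in the 4 untreated libraries and 364, 259, 233 and 339 CPM in the 4 irradiated ones. Every irradiated library lay several-fold above every untreated one, with a log2 fold change of 3.58 (SE 0.18, adjusted p = 1.66e-09). Ccng1 (cyclin G1; ENSMUSG00000020326, chr11:40748552-40755311, minus strand) had 65.6, 66, 72.6 and 63.1 CPM in untreated and 343, 304, 324 and 358 CPM in irradiated libraries, a log2 fold change of 2.31 (SE 0.12, adjusted p = 1.66e-09). The 4 values of each group lay close together and far from those of the other.

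Targets of lower level were among the rises. Phlda3 (ENSMUSG00000041801, chr1:135766119-135769136, plus strand), an inhibitor of AKT signaling, had 5.12, 5.77, 3.3 and 2.88 CPM in untreated and 30.0, 52.6, 42.7 and 46.9 CPM in irradiated libraries, a log2 fold change of 3.51 (SE 0.26, adjusted p = 1.80e-07). Psrc1, a spindle protein and p53 target, had 2.05, 3.14, 0.825 and 2.57 CPM and 34.3, 25.1, 31.6 and 34.7 CPM, and Cox6b2, a subunit of cytochrome oxidase, had 3.07, 1.83, 1.65 and 1.23 CPM and 68.5, 26.7, 46.1 and 26.9 CPM. Neither gene overlapped between groups, and their log2 fold changes were 3.70 and 4.47. Trp53cor1 (lincRNA-p21), a noncoding transcript beside Cdkn1a, had no UMI in the 1091 untreated members and 1, 4, 5 and 13 UMIs in the irradiated libraries. Against a floor of 3 UMIs over the untreated group it was at least 24.1-fold higher. Among the Panc02-SIY libraries it could pass the filter on low counts only through irradiated ones, where it was high. Its rise was therefore close to fixed by the filter and is a description.

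Targets that act in cell death rose as well. Bax, a pore-forming protein of the mitochondrial membrane, had 119, 128, 129 and 162 CPM in untreated and 269.8, 353, 312 and 397 CPM in irradiated libraries, with no overlap and a log2 fold change of 1.32 (SE 0.14, adjusted p = 2.67e-05). The log2 fold change of Bbc3 (PUMA) was 2.71, that of Pmaip1 (NOXA) 1.24 and that of Trp53inp1, a p53-induced nuclear protein, 2.21. Of 17 genes of the BCL2 family, 4 rose (background 3.15%) and none fell in the edgeR test (3 fell at an unadjusted p below 0.05, and 0 were called lower with DESeq2), the pro-survival gene Bcl2 among them, with 289.9, 245, 239.8 and 258 CPM in untreated and 488, 441, 339 and 521 CPM in irradiated libraries (log2 fold change 0.79). Genes that restrain p53 rose too: Mdm2, its ubiquitin ligase, by 0.73 and Mdm4, the partner of that ligase, by 1.24 on the log2 scale. The summed level of the p53 list was 1892, 1729, 1933 and 1697 CPM in untreated and 4291, 3581, 3830.3 and 3786 CPM in irradiated libraries, a ratio of the means of 2.14. It held in the other settings with 23 to 31 rises, except with DESeq2, which gave 12 rises and no adjusted p for 34 of the 48 genes, and at equal totals per library, which gave 15.

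**Figure D3:**
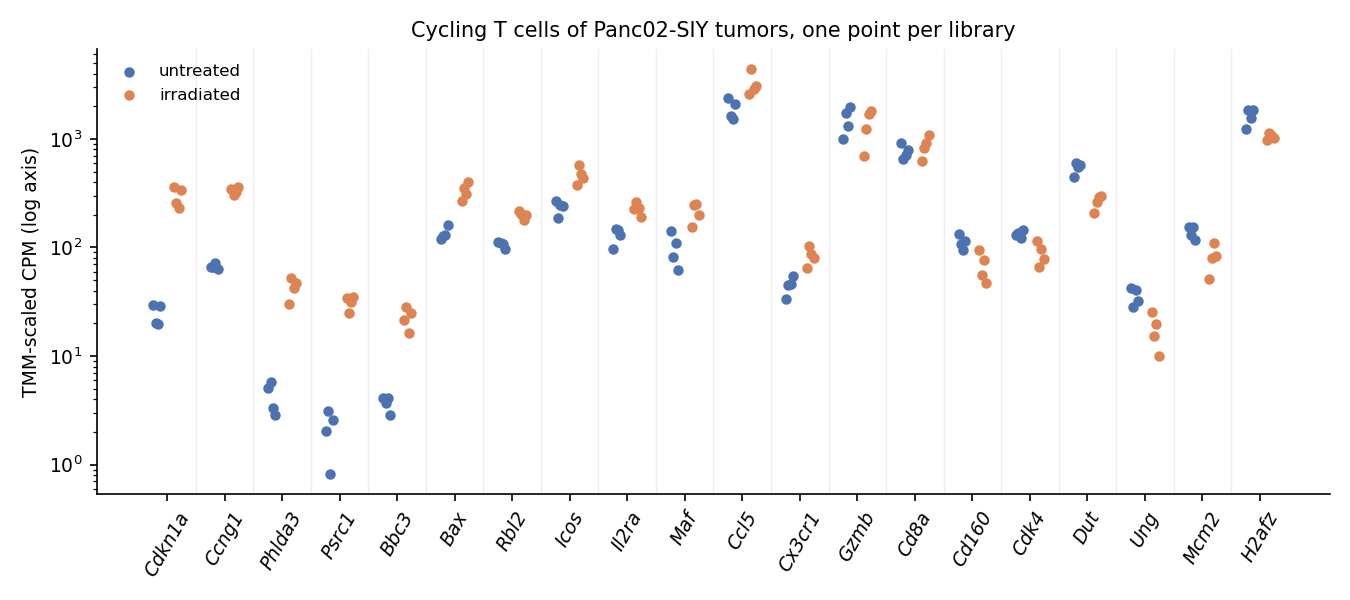
TMM-scaled CPM (log axis) of 20 genes in the cycling T cells of the 8 Panc02-SIY libraries, with untreated and irradiated libraries in separate colors and 1 point per library. Cdkn1a, Ccng1 and Phlda3 lie higher and Dut lies lower in all 4 irradiated libraries, and the groups overlap in Gzmb and Cd8a.

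S phase genes fell in part, while few genes of mitosis were called. Of 60 S phase genes, 17 fell (background 5.11%) and none rose in the edgeR test (0 rose at an unadjusted p below 0.05, and 0 with DESeq2), with a median log2 fold change of -0.36, and 14 of the 60 did not overlap between groups (background 11.2%). Dut (ENSMUSG00000027203, chr2:125247190-125258608, plus strand), which keeps uracil out of DNA, had 447, 599, 556 and 569 CPM in untreated and 209.8, 260.4, 294 and 299.7 CPM in irradiated libraries, so that every irradiated library lay below every untreated one (log2 fold change -1.0 (SE 0.13, adjusted p = 3.41e-04)). Ung, the glycosylase that removes uracil from DNA, fell by 1.23, Ccne1 (cyclin E1) by 1.03, Cdca7 by 0.90 and Tk1 (thymidine kinase) by 0.77 on the log2 scale. Mcm2, a subunit of the replicative helicase, had 156, 129, 154 and 116 CPM and 51.4, 80.1, 111 and 83.4 CPM (log2 fold change -0.68), and Pcna, the replication clamp, fell by 0.52 on the log2 scale. The whole list summed to 5708, 7177, 6635 and 6416 CPM in untreated and 4484, 4858, 6507 and 5162 CPM in irradiated libraries, and irradiated replicate 3 lay within the untreated range. The count of falls was 14 among members with at least 3 Mki67 and Top2a UMIs and 14 among CD8 cells alone. It was 5 without irradiated replicate 2, 9 without untreated replicate 2, 10 without either replicate 4 and 24 without untreated replicate 1. DESeq2 gave 5, and equal totals per library gave 1. Members with no Lyz2 UMI gave 11, as did libraries thinned to the lowest mean UMIs per cell. A log2 fold change above 0.58 gave 10, and with the replicate number as a block 28 fell.

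Of 70 genes of G2 and mitosis, 2 rose (background 3.15%), both of them also p53 targets (Psrc1 and Gtse1), and none fell in the edgeR test (1 fell at an unadjusted p below 0.05, and 0 were called lower with DESeq2), with a median of 0.05. The rises numbered 4 without untreated replicate 1, 3 without untreated replicate 2 and 1 without untreated replicate 3 or 4 or irradiated replicate 2, 3 or 4. DESeq2 called 0 of the 70 higher (2 at an unadjusted p below 0.05) and gave no adjusted p for 30, and with the replicate number as a block 6 rose and 4 fell. The list summed to 5777, 10748, 7526 and 10235 CPM in untreated and 4723, 8776, 10281 and 10431 CPM in irradiated libraries, and the groups overlapped over most of their range. Of 17 histone genes 3 fell (background 5.11%), with a median of -0.79: Hist1h2ab by 1.38, H3f3a by 0.51 and H2afz, a histone variant, by 0.62 on the log2 scale. H2afz had 1222, 1842, 1547 and 1839 CPM in untreated and 968, 1129, 1085 and 1024 CPM in irradiated libraries, which did not overlap. Most replication histone transcripts lack a poly(A) tail and are captured poorly by this assay. Of 38 DNA repair genes, 1 fell (Lig1, DNA ligase 1) and none rose in the edgeR test (0 rose at an unadjusted p below 0.05, and 0 with DESeq2), a share near the background.

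Among 23 genes of G1 control, 8 rose and 1 fell (background 3.15% and 5.11%). Beside Cdkn1a the rises held Rbl2 (p130), a member of the RB family that binds E2F in resting cells, at 112, 109, 107 and 96.6 CPM in untreated and 218, 205, 181 and 197 CPM in irradiated libraries, with no overlap (log2 fold change 0.91 (SE 0.12, adjusted p = 3.70e-04)). Rb1 rose by 0.66, Ccnd2 (cyclin D2) by 0.63 and Btg1, an antiproliferative gene, by 0.61 on the log2 scale. The gene that fell was Cdk4, the kinase that cyclin D partners, at 130.1, 135, 122 and 144 CPM in untreated and 116, 65.5, 96.5 and 78.1 CPM in irradiated libraries and no overlap (log2 fold change -0.66). The rises numbered 5 without untreated replicate 2 or 4, without irradiated replicate 2 and at equal totals per library. Cdk4 had a log2 fold change of -0.53 without irradiated replicate 2 that did not pass the test. At equal totals per library 0 of 22 genes tested were called lower (1 at an unadjusted p below 0.05). In glycolysis and the hypoxia response, 4 of 22 genes fell and 2 rose: Ldha (lactate dehydrogenase, -0.63), Mif, Pgam1 and Eno1 fell, and Hif1a (0.65), the oxygen-sensing factor, and P4ha1 rose. Ldha had 568, 723, 591 and 814 CPM in untreated and 283, 451, 459 and 513 CPM in irradiated libraries, which did not overlap. Genes outside the lists that fell in every setting included Nme1 (-0.99), a nucleoside diphosphate kinase, and Ppia (-0.76), a prolyl isomerase, both named after their values were seen.

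Genes of T cell activation and regulation moved upward in part. Of 22 costimulation and activation genes, 7 rose and 1 fell (background 3.15% and 5.11%). Icos (ENSMUSG00000026009, chr1:60977927-61000320, plus strand), a costimulatory receptor of the CD28 family, had 270.5, 186, 248 and 243 CPM in untreated and 377, 573, 477 and 439 CPM in irradiated libraries, so that the lowest irradiated library lay above the highest untreated one (log2 fold change 1.00 (SE 0.14, adjusted p = 8.64e-04)). Il2ra (CD25), the high-affinity chain of the IL-2 receptor, rose by 0.78, Cd28 by 0.58, Tnfrsf4 (OX40) by 0.77, Tnfrsf9 (4-1BB) by 0.67 and Tnfrsf18 (GITR) by 0.65 on the log2 scale. Of 20 regulatory T cell genes 7 rose and none fell in the edgeR test (0 fell at an unadjusted p below 0.05, and 0 with DESeq2), with a median of 0.64, but 5 of the 7 (Ctla4, Tnfrsf18, Tnfrsf9, Tnfrsf4 and Il2ra) also stand in the lists of costimulation or inhibition, and Foxp3 had 40, 6.03, 12.8 and 2.57 CPM in untreated and 0, 15.4, 35.9 and 5.62 CPM in irradiated libraries (log2 fold change 0.47, adjusted p = 0.897). Among CD8 cells alone 3 of the list rose. The rises of the costimulation list fell to 3 without irradiated replicate 2 or 3 or without untreated replicate 2 or 4, to 4 without irradiated replicate 4 and at equal totals per library, and to 3 with macrophage-rich cells removed, and those of the regulatory list to 2 without irradiated replicate 4, 3 without untreated replicate 2 or 4, 3 of 13 tested at equal totals per library, and 4 without irradiated replicate 3.

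Of 20 genes of inhibitory receptors and dysfunction, 6 rose and 1 fell (background 3.15% and 5.11%), with a median of 0.34. Maf, a transcription factor of IL-10-producing and exhausted T cells, had 140.4, 81.5, 109 and 62.2 CPM in untreated and 154, 247, 252 and 200.3 CPM in irradiated libraries (log2 fold change 1.20 (SE 0.24, adjusted p = 0.0265)). Cd200r1 rose by 0.98, Prdm1 (Blimp-1) by 0.70, Cd38 by 0.68 and Ctla4 by 0.62, and Cd160 fell by 0.84 on the log2 scale. Pdcd1 (PD-1) and Tox, genes central to exhaustion, had log2 fold changes of 0.04 and -0.04, neither past the test. The rises numbered 11 without irradiated replicate 1, 3 without untreated replicate 2, 4 without untreated replicate 3 or 4 or irradiated replicate 3 or 4, 4 with DESeq2, with every barcode kept and when cells with tumor and stromal UMIs were removed, and 2 of 18 tested at equal totals per library.

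Of 27 cytotoxic effector genes 3 rose (background 3.15%): Cx3cr1, the fractalkine receptor of effector cells, Ccl5, and Fasl, the ligand of the death receptor Fas. Cx3cr1 had 33.8, 45.1, 46.2 and 54.5 CPM in untreated and 64.2, 104, 86.2 and 80.3 CPM in irradiated libraries (log2 fold change 0.90 (SE 0.16, adjusted p = 0.0074)), and Ccl5 had 2397, 1618, 1526 and 2081 CPM and 2565, 4362, 2865 and 3065 CPM (log2 fold change 0.76). Gzmb, the main granzyme of killer cells, had 1007, 1735, 1306 and 1962 CPM and 694, 1244, 1713 and 1797 CPM, with groups that overlapped and a log2 fold change of -0.13 that did not pass the test. Of 20 naive and memory genes 4 rose and 2 fell (background 3.15% and 5.11%), led by Ccr7 (1.47), the lymph node homing receptor, which is also on the list of dendritic cell markers, and Bcl2, while Tcf7 had a log2 fold change of 0.18 that did not pass the test. Id3 (-2.13), an inhibitor of E proteins, and Ly6c1 (-4.36) fell in the edgeR test. DESeq2 called 0 genes of this list lower (2 at an unadjusted p below 0.05) and gave no adjusted p for 10.

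Interferon-stimulated genes stayed near the background of 3.15% higher and 5.11% lower, with 3 rises and 1 fall of 64. Mx1, an antiviral GTPase, had 3.07, 3.93, 5.36 and 3.5 CPM in untreated and 12.8, 17, 15.4 and 16.9 CPM in irradiated libraries (log2 fold change 2.01), a separate range at a low level, and Iigp1 fell by 0.68 on the log2 scale, a fall that turned into a log2 fold change of 0.16 when macrophage-rich cells were removed. Of 20 immediate early genes 5 rose (background 3.15%), among them Btg2 (0.59) and Klf6 (0.51). These genes also respond to tissue dissociation. Of 15 T lineage genes 1 rose (Bcl11b). Cd8a had 909, 649, 713 and 791 CPM in untreated and 629, 831, 912 and 1096 CPM in irradiated libraries and Cd4 had 37.9, 18.1, 12.4 and 13.6 CPM and 64.2, 41.2, 29 and 18.1 CPM, and neither passed the test.

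**Figure D4:**
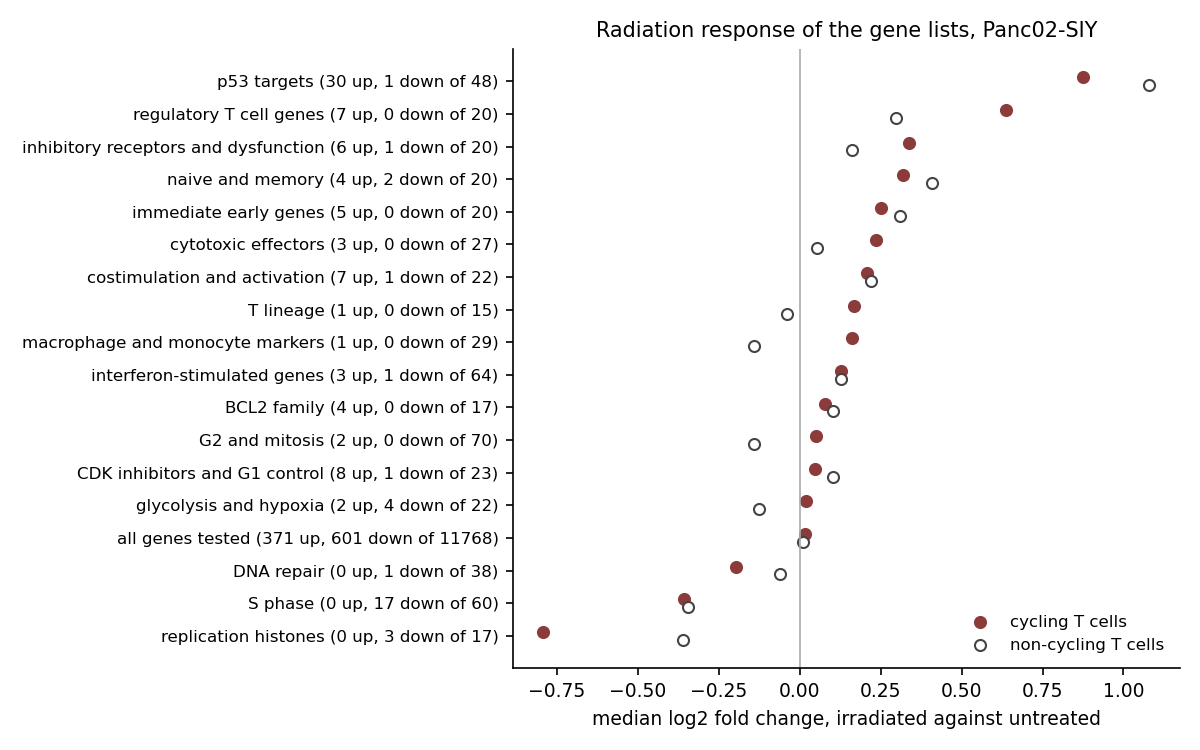
Median log2 fold change (irradiated against untreated, horizontal axis) of each gene list in cycling (filled) and non-cycling (open) T cells of Panc02-SIY, with the genes that rose and fell of those tested in cycling cells beside each name. The p53 targets stand at 0.88 and 1.08, the S phase list at -0.36 and -0.35, and all genes tested at 0.02 and 0.01.

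The largest falls rested on few UMIs in irradiated members. Of the 601 genes called lower, 31 had no UMI in the irradiated members and 99 were under 10 CPM in the untreated mean. Col18a1, a basement membrane collagen, had 164 UMIs in untreated and none in irradiated members, at least 17.4-fold lower against a floor of 3 UMIs over the irradiated group, and Col3a1, a fibrillar collagen, had 64 UMIs and none, at least 6.78-fold lower. Of 9 tumor and stromal markers tested 5 fell (Col3a1, Sparc, Col1a1, Krt8 and Krt18). Each of the 5 passed the filter on low counts through untreated libraries alone, where it was high, so its fall was close to fixed by the filter and the count is a description, not set against the background. The cells were sorted as CD45+, a gate that leaves out tumor and stromal cells. The count was 1 without irradiated replicate 2 or 4, 2 without irradiated replicate 3 and 4 to 6 without any other library. The list summed to 27.3, 78.8, 107 and 93.2 CPM in untreated and 25.7, 41.9, 39.7 and 46.6 CPM in irradiated libraries, its most abundant gene was Pecam1, and no marker of its 12 was at 0 in all libraries. At least 10 UMIs of the list were found in 14 untreated and 2 irradiated members, of which 12 had 2 or 3 CD3 UMIs. With members of at least 10 CD3 UMIs 6 of the markers were tested and 0 called by edgeR (3 lower at an unadjusted p below 0.05), at a median log2 fold change of -3.33, beside -3.49 for the 9. DESeq2 gave no adjusted p for any of the 9, with 5 lower at an unadjusted p below 0.05 and a median of -3.53. Among CD8 cells alone, when cells with 3 or more tumor and stromal UMIs (tumor-rich cells) were removed, and when only the libraries of these 2 groups were fitted, Pecam1 and Epcam alone passed the filter on low counts, so that none of the 5 falls was tested there.

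Markers of other blood cells were present at levels that did not separate the groups. The counts called below stand beside 3.15% of all genes tested that rose and 5.11% that fell. Macrophage and monocyte markers summed to 2488, 4469, 4248 and 5027 CPM in untreated and 4676, 4644, 3288 and 4801 CPM in irradiated libraries, 1 of 29 tested rose (Adgre1, 0.99, a call lost without any 1 library other than untreated replicate 4), and the most abundant was Cd74 at 514 and 526 CPM. At least 100 UMIs of that list were found in 0%, 9.84%, 8.93% and 16% of members of the untreated and 9.52%, 2.56%, 1.90% and 7.97% of those of the irradiated libraries, which overlapped. Dendritic cell markers summed to 1215 and 1327 CPM on average and neutrophil markers to 113 and 169 CPM, and of 11 and 10 tested 1 (Ccr7) and 0 were called by edgeR. NK cell markers, 0 of 13 called, summed to 2950.3 and 2213 CPM, mostly Gzma, which T cells also make. B cell markers, 0 of 7 called, summed to 119 and 113 CPM, and gamma delta and innate-like genes, 0 of 6 called, to 96.8 and 79.5 CPM. No gene of these lists was at 0 in all libraries, except Sox13 of the gamma delta list. At an unadjusted p below 0.05, 1 NK cell and 1 neutrophil marker rose and no B cell or gamma delta gene moved either way, and DESeq2 called 0 genes of these 4 lists. With macrophage-rich cells removed, 30 p53 targets rose and 22 S phase genes fell, and with tumor-rich cells removed the counts were 27 and 16.

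Non-cycling T cells of the same libraries showed the p53 rise as well. Of 10722 genes tested, 104 rose (0.97%) and 46 fell (0.429%), and 75 genes were called in the same direction in both populations, which is 7.72% of the 972 called in cycling and 50% of the 150 called in non-cycling T cells. Of 46 p53 targets tested 26 rose, with a median of 1.08 beside 0.88 in cycling cells, and the list summed to 2073 CPM in untreated and 3971 CPM in irradiated tumors. S phase genes, at a lower level, had a median of -0.35 with 4 falls of 54, and G2 and mitosis genes a median of -0.14 with 2 rises and 3 falls. The 2 populations share their libraries, and their called counts come from fits of unequal depth.

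The difference between the 2 responses was therefore tested directly, within libraries. Of 13237 genes tested, 79 had a response in cycling cells above that in non-cycling cells (0.597%) and 101 below it (0.763%), and the median difference was -0.02. Of the 101, 23 had at most 3 UMIs in irradiated members. Stmn1 (stathmin; ENSMUSG00000028832, chr4:134468320-134473843, plus strand), which takes microtubules apart in dividing cells, had log2 fold changes of -0.44 in cycling and -1.75 in non-cycling cells, a difference of 1.32 (adjusted p = 8.66e-07). Cks1b, which binds cyclin-dependent kinases, had -0.32 and -1.28, a difference of 0.95 (adjusted p = 0.00864), and in both genes the fall passed the test only in the cells chosen for no Mki67 or Top2a UMI. Cx3cr1 had 0.90 and -0.26, a difference of 1.09 (adjusted p = 8.11e-04), and Icos 1.00 and 0.45, a difference of 0.52 (adjusted p = 0.00672). Rgs10, a regulator of G protein signaling, had 0.08 and -0.84, a difference of 0.87 (adjusted p = 0.00301). Of 50 p53 targets in this test, 1 was called above and 1 below, with a median difference of 0.07. Trp53inp1 rose more in cycling cells (2.21 against 1.5, difference 0.71 (adjusted p = 0.00807)), and Gtse1 rose less (0.83 against 2.64, difference -1.87 (adjusted p = 0.0531)). Of 60 S phase genes, 0 were called above and 1 below, with a median difference of -0.04. Il2, the T cell growth factor, rose in non-cycling cells (2.65) and had a log2 fold change of -1.56 in cycling cells that did not pass the test, with 30 UMIs in untreated and 4 in irradiated members, a difference of -4.25 (adjusted p = 0.00571). The number of genes called depended on single libraries, at 44 without irradiated replicate 4, 55 without untreated replicate 4, 78 without irradiated replicate 2, 87 without untreated replicate 3 and 359 without untreated replicate 1, beside 180 with all.

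**Figure D5:**
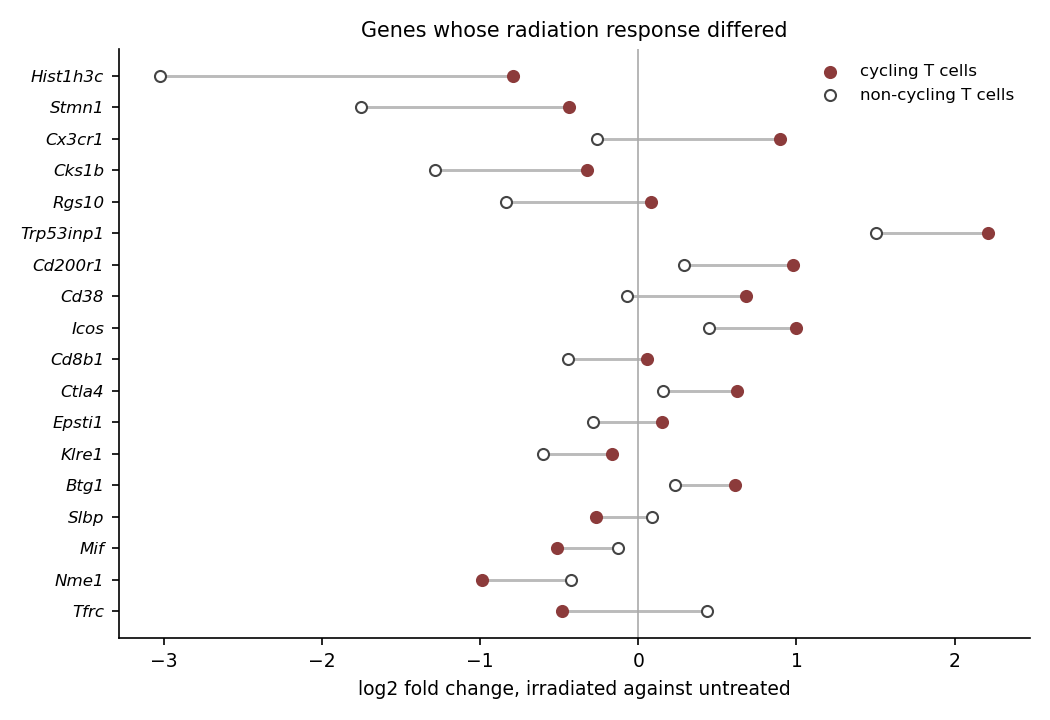
Log2 fold change after radiation (horizontal axis) in cycling (filled) and non-cycling (open) T cells of Panc02-SIY, joined by a line, for the 18 named genes with a mean log2 CPM above 5 whose responses differed in the edgeR test, ordered by that difference. Among these 18, Hist1h3c and Stmn1, at the top, had values nearer to 0 in cycling cells, and Tfrc, at the bottom, had -0.48 in cycling and 0.44 in non-cycling cells.

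The 14 cycling T cells of MC38 came from 81 T cells, and their share was 20%, 0%, 12.5% and 37.5% in the untreated and 28.6%, 25%, 8.33% and 21.4% in the irradiated libraries. The means, 17.5% and 20.8%, were within the spread (exact permutation p = 0.743). The difference from the share in Panc02-SIY was -7.72 percentage points in untreated (exact permutation p = 0.429) and 6.79 in irradiated tumors (p = 0.257), and its sign changed with the settings. A Foxp3 UMI was found in 2 of 6 untreated and 4 of 8 irradiated members, and 3 and 4 were CD8 cells. Summed over the members, Bax had 19 UMIs (207 CPM, 95% interval 125 to 324) in untreated and 42 UMIs (414 CPM, 95% interval 298 to 559) in irradiated members, and Gzmb had 223 UMIs (2434 CPM, 95% interval 2125 to 2775) in untreated and 168 UMIs (1655 CPM, 95% interval 1414 to 1925) in irradiated members, with exact Poisson intervals that cover counting error only. Cdkn1a had 27 UMIs (295 CPM, 95% interval 194 to 429) in untreated and 8 UMIs (78.8 CPM, 95% interval 34 to 155) in irradiated members. The intervals of Bax overlapped narrowly and those of Cdkn1a not at all, with Cdkn1a lower in irradiated members. Stmn1 had 139 UMIs in untreated and none in irradiated members, where a count of 0 allows up to 29.6 CPM by a floor of 3 UMIs and up to 36.3 CPM by the 95% interval, and Mki67, used to choose them, had 65 and 3 UMIs. Of the 8 irradiated members 6 had exactly 2 Mki67 and Top2a UMIs, against 2 of 6 untreated members, and 2 untreated members of replicate 1 carried a median of 80.5 such UMIs. With so few cells the totals follow single cells.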

How the data were processed

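The deposited files hold UMI counts per barcode and gene, 1 matrix of 31053 features per library, which the authors made with Cell Ranger 3.1.0 (bcl2fastq 2.20.0, build mm10, per the submitters' processing notes). Read alignment, the counting of UMIs and the calling of cells were done by the authors, and their aggregated matrix is left out here. Cells were live CD45+ cells of 16 libraries in 4 groups of 4, each library taken as 1 replicate.

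Barcodes were filtered and chosen as the opening states. Counts were summed per library over cycling and over non-cycling T cells, for libraries with at least 3 members, and modelled with edgeR 4.0.16 under R 4.3.3 (genes kept by filterByExpr at a count of 3 in at least 1 library, the size of each MC38 group in the fit, and a summed count of 15, TMM scaling, robust quasi-likelihood F test, 1 coefficient per group). The 10 libraries of the fit were all 8 of Panc02-SIY and 2 of MC38 with 3 members each. The response difference was fitted with library as a block. The call needed a change of more than 1.3-fold and a p under 0.1 after Benjamini-Hochberg adjustment. The 6 genes of the choice were not tested. Values per library are TMM-scaled CPM from the fit for single genes, and plain CPM for list sums and for cycling against non-cycling cells. Shares were compared by exact permutation in scipy 1.17.1. Intervals cover counting error only. Comparisons of genes in MC38 and between the lines, and of makeup in MC38, were planned and not made, since 1 library per MC38 group had 3 members. Python 3.11.15, numpy 2.4.6, pandas 2.3.3 and matplotlib 3.10.9 were used. Scrublet in scanpy 1.11.5 marked 32 barcodes (0.112%) by its automatic threshold, 2 of them members, so no doublets were removed, and as an alternative the 5% of highest scores per library (130 members) were removed.

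The members, the 23 gene lists and the tests were chosen with earlier results of these data known. Genes named are the lineage genes, up to 6 called genes per list by size, the 5 largest rises and falls without overlap, and, for cycling against non-cycling cells, up to 4 per list. Nme1, Ppia, Mdm2, Mdm4, Mcm2, Pcna, Gzmb, Pdcd1, Tox, Tcf7, Stmn1, Rgs10 and Il2, members of lists beyond the first 6, and examples with a smaller difference from non-cycling cells were named after their values were seen. Some genes that the rule names are not reported here. Alternatives were RLE scaling, DESeq2 1.42.0, other filters, gates, thresholds, depths and fits, and leaving out each library. The settings at equal total UMIs, without tumor-rich or macrophage-rich cells, with at least 10 CD3 UMIs and among CD8 cells alone were added after the data were seen. On simulated counts for 10895 genes of the Panc02-SIY comparison, the edgeR fit recovered 87.2% of genes changed by 1 and 98.9% of those changed by 2 on the log2 scale, and 7.5% of its calls were false. Gene positions are from GENCODE vM21 (GRCm38), and promoters from RefSeq (GRCm38.p6).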

Additional observations from a re-analysis of the deposited data

Results flagged for a closer look

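A library stood apart from the other 3 of its group in 4 of 86 groups of values looked at, where chance gives about 1 in 20. The conventional CD4 share of cycling T cells was 28.6% in irradiated replicate 1 of Panc02-SIY, which has 21 members, beside 1.90% to 5.98% in the others. The histone list summed to 3209 CPM in the same library, beside 4322 to 4427 CPM. The macrophage and monocyte list summed to 3288 CPM in irradiated replicate 3, beside 4644 to 4801 CPM. Mdm2 had 122 CPM in irradiated replicate 4, beside 97.0 to 99.9 CPM.

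The response to radiation differed between cycling and non-cycling T cells of Panc02-SIY, by the edgeR test of the difference itself, for 35 genes named by rule or by choice, of which 27 had more than 3 UMIs in the cycling members of both groups. Each value here is the log2 fold change in cycling minus that in non-cycling cells. Those described in the report are Stmn1 (1.32), Cx3cr1 (1.09), Rgs10 (0.87), Il2 (-4.25), Icos (0.52), Trp53inp1 (0.71), Cks1b (0.95) and Gtse1 (-1.87). Genes with a higher response in cycling cells also included Prss2 (4.18), Armc3 (1.92), Gm28935 (1.28), Hist1h3c (2.17), Cd8b1 (0.48), Cenpm (1.54), Ctla4 (0.45), Btg1 (0.39), Cd200r1 (0.69), Adgre1 (1.23), Cd38 (0.67), Epsti1 (0.41) and Klre1 (0.40). The T cell genes among them are Ctla4, Cd200r1, Cd38, Cd8b1 and Klre1, an NK cell receptor gene, and the cell-cycle genes are Cenpm and Hist1h3c, which fell in non-cycling cells. Genes with a lower response in cycling cells also included Nme1 (-0.57), Tfrc (-0.90), Mif (-0.41), Usp18 (-1.32), Naaa (-1.51) and Slbp (-0.38). Nme1 fell in cycling cells, and Usp18, Naaa and Tfrc had a positive log2 fold change in non-cycling cells that did not pass the test there. Another 8 genes with a called difference (Col18a1, Col1a1, Col3a1, Col6a1, Dcn, Meis1, Met and Tmem252) had 35 to 497 UMIs in untreated and 0 to 3 in irradiated cycling members, so their fitted differences depend on the prior count of the fit and are not given. A gene of so few UMIs passes the filter on low counts through the cells where it is high.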

How the results depend on the processing

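The number of genes called in cycling T cells of Panc02-SIY, 972, was 364 with DESeq2, 565 with every barcode kept, 605 at a log2 fold change above 0.58, 157 at equal total UMIs, and 351 to 1520 when 1 library was left out. Under the other alternatives run it stayed within 1.5 times. With the replicate number as a replicate block it was 1531. The labels name no animal or batch shared by a number. Same-numbered libraries had correlated deviations of 0.069, 0.004, 0.028 and 0.455 over 6245 genes, beside -0.233 to 0.110 for differently numbered ones. The value of replicate 4 lay above that range. Whether same-numbered libraries share a batch was not tested, and the main tests do not pair them. The number with a differing response, 180, was 445 with no low count filter, 279 with at least 3 Mki67 and Top2a UMIs, 102 with every barcode kept, 118 at a log2 fold change above 0.58, 85 without tumor-rich cells, 287 among CD8 cells, and 44 to 359 when 1 library was left out.

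The lower cycling share in irradiated Panc02-SIY (-11.2 percentage points) kept its sign in every alternative, at -13.7 to -8.23 when 1 library was left out, with a lowest exact permutation p of 0.0286 without irradiated replicate 4. The MC38 difference, 3.33, turned to -8.42 with at least 3 Mki67 and Top2a UMIs, -1.82 with every barcode kept, -3.80 and -5.48 when thinned to 2000 and 3000 UMIs, and ran from -2.5 to 10.0 when 1 library was left out. In irradiated tumors MC38 minus Panc02-SIY, 6.79, turned to -6.47, -1.40, -0.799 and -1.51 in the same order, and to -0.157 with no cell filter. In untreated tumors it turned from -7.72 to 0.281 at 2000 UMIs. The Foxp3 share difference in Panc02-SIY, -0.176, was 0.0239 with no cell filter, 0.0276 without tumor-rich and 0.211 without macrophage-rich cells, 0.713 and 2.21 when thinned, and -2.31 to 1.19 when 1 library was left out. The CD8 difference ran from -8.77 to 0.867 and the conventional CD4 difference from -0.899 to 7.99, both turning without irradiated replicate 1. The causes were not tested.

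Of 132 results for named genes, 38 kept their call in every alternative and 91 lost it in at least 1. Iigp1 turned to 0.16 without macrophage-rich cells, and the response difference of Col1a1 to 0.44 without tumor-rich cells. The shallowest library by members' UMIs was irradiated replicate 1 of Panc02-SIY, with 233743. MC38 gene and makeup comparisons were not run.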
